A study of Mus musculus with 24 samples.

Results

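CXCR3 and its 3 interferon-induced ligands were examined in skin from C3H/HeJ mice with alopecia areata (AA), an autoimmune loss of hair. The members were the 4 rows of the gene count table that carry the symbols Cxcl9, Cxcl10, Cxcl11 and Cxcr3, of 27179 genes in the table. All 4 passed the filter on low counts and were among the 17770 genes tested. The table holds 24 RNA-Seq libraries in 7 groups. Pretreatment skin gave 6 libraries, 1 from each treatment cohort. The other groups gave 3 libraries each, taken after vehicle (titled Control and labelled untreated), INCB039110 (JAK1i, selective for JAK1), CEP-33779 (JAK2i, selective for JAK2), PF-06651600 (JAK3i, selective for JAK3), ruxolitinib (JAK1/2) or tofacitinib (pan-JAK). All mice, controls included, were of the C3H/HeJ strain with AA, transferred by grafts of affected skin or by T cells according to the study's methods, and their age and sex are not given in the sources used here. By the study's methods the compounds were given systemically, JAK1i and JAK2i at 50 mg/kg and the other 3 at 30 mg/kg, whereas the sample labels describe a topical ointment. JAK1i, JAK2i and JAK3i were given for 12 weeks, and no time is stated for the RNA-Seq libraries themselves. The labels do not say whether the libraries of a group came from separate mice, so p-values measure the spread between these libraries, which may be technical.

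CXCR3 is a chemokine receptor of activated T cells and natural killer cells. Its ligands CXCL9, CXCL10 and CXCL11 are secreted by keratinocytes, macrophages, endothelium and other cells when interferon-γ (IFN-γ) signals through JAK1 and JAK2, and they draw CXCR3-bearing T cells into inflamed tissue. In AA these T cells gather around the hair follicle, and the IFN-γ they release is known to induce more of the ligands.

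The 3 ligand genes lie side by side on the minus strand of chromosome 5 (GRCm38), Cxcl9 (Entrez 17329) at chr5:92321331-92328079, Cxcl10 (15945) at chr5:92346638-92348889 and Cxcl11 (56066) at chr5:92359544-92363296, together spanning 41966 bases. Cxcr3 (12766) lies on the minus strand at chrX:101731535-101734147. The reference genome is that of C57BL/6J, in which RefSeq lists Cxcl11 as a transcribed pseudogene and GENCODE as a polymorphic pseudogene. The mice here are C3H/HeJ, so reads of Cxcl11 are reported as RNA of the locus only. Art3, on the opposite strand, overlaps exons of Cxcl10 and the body of Cxcl11, and in GENCODE the pseudogene Gm2673 overlaps exons of Cxcl11. The sources used here do not give the strand setting of the counting.

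The promoters of Cxcl9 and Cxcl10 are shown because both genes moved together across the groups. RefSeq promoters (GRCm38.p6, from 250 bases before to 50 bases after the start) matched 3 of the 4 members, Cxcl9, Cxcl10 and Cxcr3. The 250 bases before the start are printed 5′ to 3′ on the gene's strand, at chr5:92328080-92328329 for Cxcl9 and chr5:92348890-92349139 for Cxcl10, both on the minus strand. Capitals mark matches to the motifs searched.
Cxcl9: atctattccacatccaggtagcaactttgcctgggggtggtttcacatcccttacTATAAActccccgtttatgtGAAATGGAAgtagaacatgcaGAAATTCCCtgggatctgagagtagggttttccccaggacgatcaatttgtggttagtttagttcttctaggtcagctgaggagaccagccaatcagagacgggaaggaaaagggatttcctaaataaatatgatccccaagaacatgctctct
Cxcl10: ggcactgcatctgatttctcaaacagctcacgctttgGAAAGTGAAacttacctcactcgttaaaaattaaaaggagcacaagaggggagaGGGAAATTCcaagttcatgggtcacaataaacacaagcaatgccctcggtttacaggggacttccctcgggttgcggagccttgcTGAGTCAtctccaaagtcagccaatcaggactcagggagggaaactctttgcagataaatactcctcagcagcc
Matches were sought on both strands for GAAANNGAA (the core of the interferon-stimulated response element, ISRE), TTCNNNGAA (GAS, the interferon-γ-activated sequence), GGGAANTTC (NF-κB), TGANTCA (AP-1), GGTGTGA (T-box) and TATAAA. Both ligand promoters held an ISRE core, at position -175 from the start in Cxcl9 and -213 in Cxcl10. Both also held an NF-κB match, at -154 and -159, and an AP-1 match, which in Cxcl9 lay past the start and outside the printed stretch. Cxcl9 alone of the 3 had a TATAAA match, at -195. Of 32544 mouse promoters of this length, 8.53% held the ISRE core, 8.33% the GAS motif, 1.08% the NF-κB motif, 7.79% the AP-1 motif, 3.96% the T-box motif and 13.6% TATAAA. The Cxcr3 promoter held none of the 6. A match of letters is a description of this window and not a mapped binding site.

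Total counts per library ran from 17311913 to 21858670. In a small table of 7 signature genes deposited beside the counts, which includes Cxcl9 and Cxcl11, 18 of 24 columns match the count library named alike, while 6 fit a different library. The 6 are exchanged in pairs, JAK1i replicate 2 with JAK2i replicate 1, JAK1i replicate 3 with JAK3i replicate 1, and JAK2i replicate 3 with JAK3i replicate 2. Cxcl9 is thus listed there at 643.7 under JAK1i replicate 2 and at 7.24 under JAK2i replicate 1, on that table's own scale. All groups below follow the header of the count table, whose columns carry the sample titles. What moved in the tests of members without these 6 libraries is given beside the result or under the processing. Of the listed genes only some moves are given, together with counts of the pathway genes that lost or gained a call. JAK1i replicate 3 stood apart within its group, with a chi-square per gene of 220.3 and 192.6 against JAK1i replicates 1 and 2, which differed from each other by 14.1. The largest value between libraries of any other group was 73.6. The summed level of fibroblast markers was 4173 CPM in JAK1i replicate 3 and 612.2 and 646.2 CPM in the other JAK1i libraries, and that of macrophage markers was 749.6 CPM against 155.5 and 166.2 CPM. Keratinocyte genes were abundant in every library, with the summed level of 6 markers between 7724 and 30390 CPM (read counts scaled to a library of 1000000 reads).

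Cxcl9, whose product draws activated T cells toward IFN-γ-rich sites, was high in pretreatment, vehicle and JAK2i skin and low in the rest. Its level in the 6 pretreatment libraries ran from 429.3 to 618.6 CPM with a median of 489.5 CPM. The vehicle libraries held 529.3, 516.7 and 585.8 CPM, and the JAK2i libraries 537.3, 570.7 and 540.8 CPM, within the range of the pretreatment libraries. After JAK1i, Cxcl9 stood at 7.21, 6.58 and 4.37 CPM. After JAK3i it stood at 16.8, 8.02 and 13.5 CPM, after ruxolitinib at 23.1, 19.0 and 17.3 CPM, and after tofacitinib at 21.1, 18.9 and 14.1 CPM. Every library of these 4 groups lay below every pretreatment, vehicle and JAK2i library. The order of the group means was JAK1i (6.05 ± 1.49 CPM, SD, n = 3), JAK3i (12.8 ± 4.44), tofacitinib (18.03 ± 3.57), ruxolitinib (19.8 ± 3.00), pretreatment (509.1 ± 79.8, n = 6), vehicle (543.9 ± 36.8) and JAK2i (549.6 ± 18.4). Ranges overlapped between JAK3i and tofacitinib, between tofacitinib and ruxolitinib, and among the 3 highest groups.

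Cxcl10, an early and broadly induced ligand, showed the same split of the groups. Pretreatment libraries lay between 106.6 and 148.2 CPM with a median of 116.4 CPM, vehicle libraries held 139.3, 123.5 and 123.1 CPM, and JAK2i libraries 121.6, 133.2 and 135.0 CPM. It stood at 2.52, 2.74 and 2.07 CPM after JAK1i and at 2.80, 1.79 and 2.69 CPM after JAK3i. These low groups overlapped each other, with means of 2.44 ± 0.338 and 2.42 ± 0.553 CPM. After ruxolitinib it stood at 6.85, 5.63 and 3.98 CPM, and after tofacitinib at 5.04, 4.67 and 3.77 CPM, so that the ranges of these 2 groups overlapped too.

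Cxcl11, the ligand known from human cells for the highest affinity for CXCR3, was close to 1 CPM after JAK1i and JAK3i. Pretreatment libraries lay between 84.8 and 145.9 CPM with a median of 99.5 CPM, vehicle libraries held 102.3, 103.7 and 119.8 CPM, and JAK2i libraries 103.8, 103.7 and 118.3 CPM. It stood at 0.950, 0.947 and 0.672 CPM after JAK1i and at 0.949, 1.175 and 1.17 CPM after JAK3i. It stood at 2.75, 2.34 and 1.02 CPM after ruxolitinib and at 2.25, 2.56 and 1.91 CPM after tofacitinib. The values after JAK1i and JAK3i rest on 12 to 23 reads per library, and the JAK1i library with 12 reads has an exact Poisson 95% interval of 6.20 to 21.0 reads. Such intervals cover counting error only.

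Cxcr3, the receptor, showed the same split with a smaller fall. Pretreatment libraries lay between 6.43 and 13.7 CPM with a median of 9.87 CPM, vehicle libraries held 8.23, 8.95 and 11.7 CPM, and JAK2i libraries 9.28, 11.8 and 8.22 CPM. After JAK1i it stood at 0.503, 0.684 and 1.35 CPM, from 9, 13 and 24 reads. It stood at 2.74, 1.89 and 3.15 CPM after JAK3i, at 4.62, 4.203 and 4.51 CPM after ruxolitinib and at 2.89, 2.80 and 3.08 CPM after tofacitinib. All libraries of these 4 groups lay below all libraries of the pretreatment, vehicle and JAK2i groups, and within the 4 the JAK1i libraries were lowest and the ruxolitinib libraries highest, with JAK3i and tofacitinib overlapping between them. In bulk skin, fewer cells that express a gene and less RNA per cell cannot be told apart.

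Divided by summed exon length, the mean levels in pretreatment skin were 168.8 CPM per kb for Cxcl9, 54.5 for Cxcl10, 27.4 for Cxcl11 and 5.64 for Cxcr3. After JAK1i the same per-length levels were 2.01, 1.08, 0.226 and 0.488 CPM per kb, so that the receptor then ranked above Cxcl11. The receptor also ranked above Cxcl11 per length after JAK3i, ruxolitinib and tofacitinib, and above Cxcl10 after JAK3i and ruxolitinib. Exon lengths came from GENCODE, whose Cxcl11 model (3794 exon bases) extends to chr5:92365485, past the RefSeq end. The counts are per Entrez gene, so the per-length level of Cxcl11 may be too low. Before division by length, the means after JAK1i were 0.857 CPM for Cxcl11 and 0.844 CPM for Cxcr3. After JAK3i, ruxolitinib and tofacitinib Cxcr3 lay above Cxcl11 in CPM as well. These are orders of mean levels and were not tested.

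**Figure D1:**
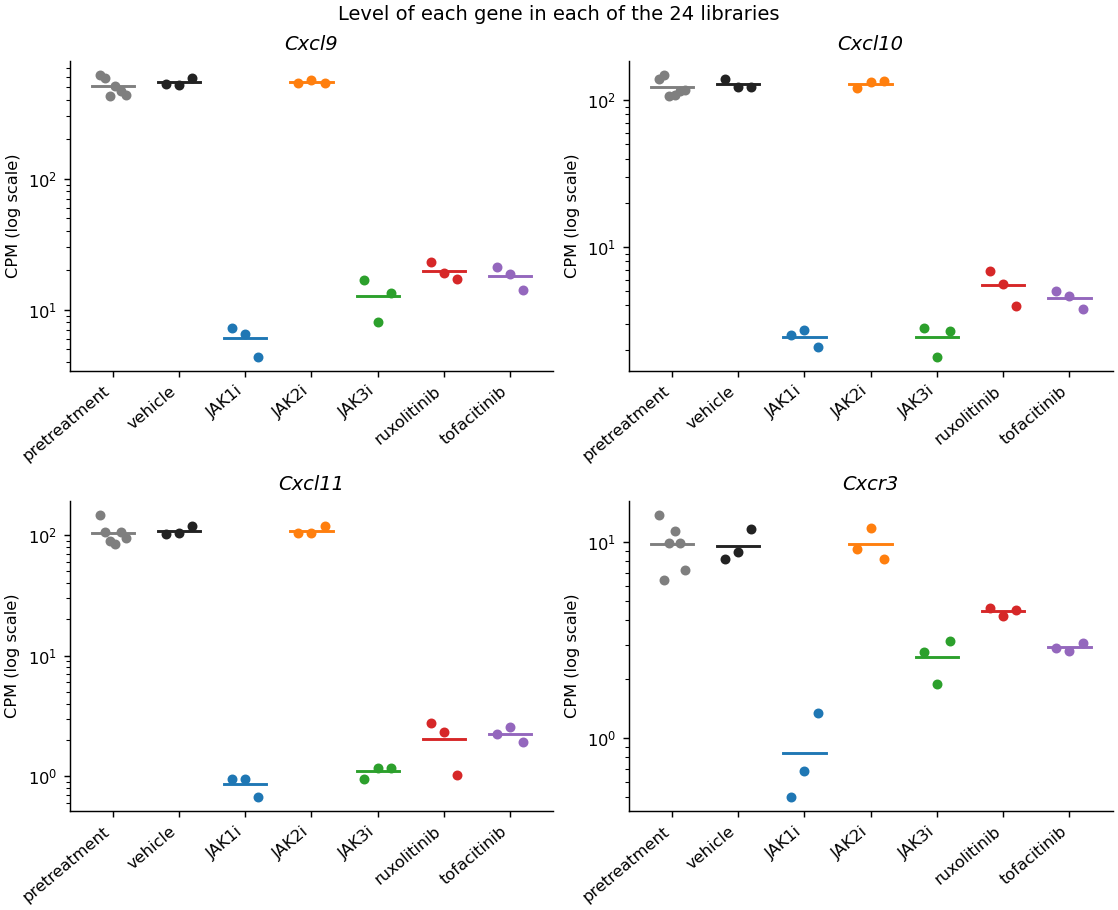
Level of Cxcl9, Cxcl10, Cxcl11 and Cxcr3 in CPM (log scale) in each of the 24 libraries. Points are libraries and bars are group means, with 6 pretreatment libraries and 3 in each other group. The pretreatment, vehicle and JAK2i libraries overlap, and all libraries after JAK1i, JAK3i, ruxolitinib and tofacitinib lie below them for each gene.

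Each inhibitor was compared with vehicle, as in the study's methods, to ask which inhibitors lowered the axis. The study's results section describes comparisons of cohorts before and after treatment. All 4 members were lower after JAK1i, JAK3i, ruxolitinib and tofacitinib. The test was edgeR's quasi-likelihood test, Benjamini-Hochberg adjusted over the 17770 genes, and a gene is said to be called where the adjusted p lay below 0.05. After JAK1i, the log2 fold change was -6.49 ± 0.27 (SE) for Cxcl9, -5.71 ± 0.20 for Cxcl10, -6.97 ± 0.28 for Cxcl11 and -3.50 ± 0.32 for Cxcr3, with adjusted p-values of at most 1.86e-08 by edgeR. This corresponds to levels 89.7-fold, 52.5-fold, 125.7-fold and 11.3-fold lower. Of all genes tested, 35.4% were called lower in this comparison, and in 35.1% every JAK1i library lay below every vehicle library, so a call alone is common in this comparison. Ordered from the most lowered gene, Cxcl11 ranked 47, Cxcl9 79, Cxcl10 200 and Cxcr3 644 of 17770.

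After JAK3i the log2 fold change against vehicle was -5.41 ± 0.25 for Cxcl9, -5.73 ± 0.20 for Cxcl10, -6.62 ± 0.27 for Cxcl11 and -1.89 ± 0.28 for Cxcr3 (edgeR adjusted p at most 6.25e-06). Of all genes, 33.1% were called lower and 36.3% lay lower without overlap. After ruxolitinib it was -4.78 ± 0.24, -4.55 ± 0.19, -5.73 ± 0.25 and -1.11 ± 0.26 in the same order of genes, with the largest edgeR adjusted p, 0.00153, for Cxcr3. There 27.2% of genes were called lower and 35.6% lay lower without overlap. After tofacitinib it was -4.91 ± 0.24, -4.84 ± 0.19, -5.59 ± 0.25 and -1.72 ± 0.27 (edgeR adjusted p at most 2.80e-05), against 28.2% of genes called lower and 34.9% lower without overlap. In each of the 4 comparisons Cxcl11 had the largest fall of the 4 members and Cxcr3 the smallest. Cxcr3 ranked 1450 after JAK3i, 1789 after ruxolitinib and 1095 after tofacitinib among genes ordered from the most lowered, while the ligands ranked between 154 and 275.

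JAK2i left no member called. Its log2 difference from vehicle was 0.02 for Cxcl9 (95% interval -0.41 to 0.44), 0.01 for Cxcl10 (-0.31 to 0.34), 0.00 for Cxcl11 (-0.40 to 0.40) and 0.03 for Cxcr3 (-0.50 to 0.55). By edgeR 0 of 17770 genes were called, or 0%, and by DESeq2 also 0, with 213 genes at an unadjusted p below 0.05 in edgeR. A fall of Cxcl9 by more than 0.41 on the log2 scale lies outside this interval.

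**Figure D2:**
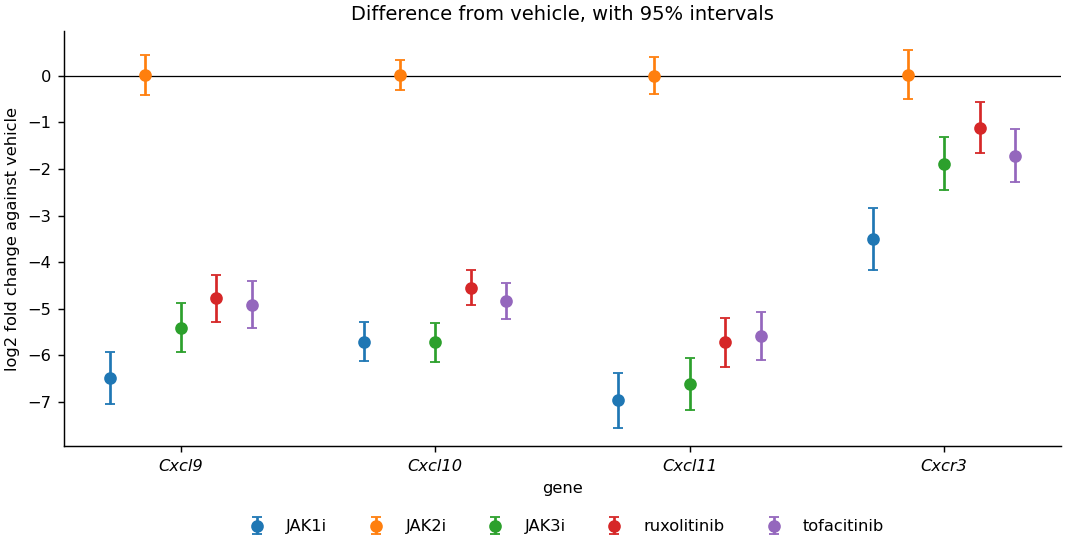
Log2 fold change of each member against vehicle after each of the 5 inhibitors, from edgeR. Points are estimates and bars 95% intervals, and the ligands lie between -4.55 and -6.97 after JAK1i, JAK3i, ruxolitinib and tofacitinib, Cxcr3 between -1.11 and -3.50, and JAK2i at 0.

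The comparison with pretreatment skin asked whether the axis moved from its level before treatment. In vehicle skin the log2 difference from pretreatment was 0.10 for Cxcl9 (95% interval -0.27 to 0.46), 0.07 for Cxcl10, 0.06 for Cxcl11 and -0.02 for Cxcr3, and 0% of all genes were called (232 genes at an unadjusted p below 0.05, and 0 by DESeq2). After JAK2i it was 0.11, 0.08, 0.06 and 0.00, again with 0% of genes called, 246 genes at an unadjusted p below 0.05 and 1 gene by DESeq2. These comparisons share the pretreatment libraries, and the comparisons of each inhibitor with vehicle and with pretreatment share the inhibitor's libraries. After JAK1i all 4 members were called lower than before treatment, with log2 fold changes of -6.39, -5.65, -6.91 and -3.53, where 38.2% of genes were called lower. After JAK3i all 4 were called lower, as were 35% of genes, with log2 fold changes of -5.32, -5.66, -6.56 and -1.91. After ruxolitinib the values were -4.68, -4.48, -5.66 and -1.13 (29.8% of genes called lower), and after tofacitinib -4.82, -4.77, -5.53 and -1.74 (30.4% of genes called lower), with all 4 members called each time. For the 4 inhibitors against vehicle or pretreatment, 448 of 448 values under alternative settings kept the call, the largest adjusted p being 0.0109.

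Inhibitors given at the same dose were compared directly, in 4 pairs and 16 tests over the members. At 50 mg/kg, JAK1i lay below JAK2i by a log2 fold change of -6.50 ± 0.27 for Cxcl9, -5.73 ± 0.20 for Cxcl10, -6.97 ± 0.28 for Cxcl11 and -3.53 ± 0.32 for Cxcr3, all called, with 35.4% of all genes called lower. At 30 mg/kg, JAK3i lay below ruxolitinib for all 4 members, where 19% of genes were called lower. The log2 fold change was -0.63 ± 0.22 for Cxcl9 (edgeR adjusted p = 0.0273), -1.180 ± 0.20 for Cxcl10 (9.90e-05), -0.90 ± 0.30 for Cxcl11 (0.0240) and -0.78 ± 0.28 for Cxcr3 (0.0349). The libraries did not overlap for Cxcl9, Cxcl10 and Cxcr3, as for 27.3% of genes, and overlapped for Cxcl11. The call of Cxcl10 held without any single library (adjusted p at most 0.00106). That of Cxcl9 was lost without JAK3i replicate 2 (adjusted p = 0.142) or ruxolitinib replicate 1 (0.116). That of Cxcl11 was lost without JAK3i replicate 1 (0.0827), ruxolitinib replicate 1 (0.142) or ruxolitinib replicate 2 (0.0857). That of Cxcr3 was lost without JAK3i replicate 1 (0.0652) or 2 (0.124), or without ruxolitinib replicate 1 (0.0794), 2 (0.0572) or 3 (0.0749). Without the 6 libraries named above, which leaves 1 JAK3i library whose spread is taken from the other groups, Cxcl9 (0.116), Cxcl11 (0.282) and Cxcr3 (0.323) were not called.

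JAK3i lay below tofacitinib for Cxcl10, with a log2 fold change of -0.89 ± 0.20 (edgeR adjusted p = 0.00144), and for Cxcl11, with -1.03 ± 0.30 (0.00987), where 20.7% of genes were called lower. Both genes showed no overlap of libraries, as did 25.2% of genes. Cxcl9 at -0.50 (95% interval -0.95 to -0.04, adjusted p = 0.0763) and Cxcr3 at -0.17 (-0.77 to 0.43, adjusted p = 0.675) were not called. Without JAK3i replicate 1 (adjusted p = 0.0173) or tofacitinib replicate 3 (0.0391) Cxcl9 was called. Without the 6 libraries, Cxcl10 (-0.76, adjusted p = 0.0883) and Cxcl11 (-0.95, adjusted p = 0.202) were not called. Tofacitinib and ruxolitinib were not called different for any member, in a comparison that called 0.371% of all genes in either direction. The intervals of the log2 difference were -0.58 to 0.31 for Cxcl9, -0.67 to 0.10 for Cxcl10 and -0.43 to 0.69 for Cxcl11. Cxcr3 was lower in every tofacitinib library than in every ruxolitinib library, as were 1809 of 17770 genes. Its log2 difference was -0.60 (95% interval -1.18 to -0.03, edgeR adjusted p = 0.419). JAK1i was given at another dose than JAK3i, ruxolitinib and tofacitinib, and was not tested against them.

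Ratios of 2 members within a library do not depend on the scaling of libraries, and they asked whether the members kept their proportions. Each posttreatment group was compared with pretreatment by a two-sided exact permutation test, with 0.5 added to each count, and 27 of 48 tests were called. The smallest p that 3 against 6 libraries can give is 0.0238, and every called ratio has this p and an adjusted p of 0.0423. Cxcl10 to Cxcl11 had a mean log2 ratio of 0.25 before treatment (-0.07 to 0.48) and of 1.49 in JAK1i skin (1.38 to 1.59). The mean log2 ratio of Cxcl10 to Cxcl11 was 1.11 in JAK3i skin (0.60 to 1.53), 1.503 with ruxolitinib (1.26 to 1.94) and 1.00 with tofacitinib (0.86 to 1.15). All 4 groups lay above all pretreatment libraries. Cxcl9 to Cxcl11 rose likewise, from a mean log2 ratio of 2.30 to 2.77, 3.45, 3.38 and 2.99 in the same order. Cxcl11 thus fell further than the other 2 ligands in each of these 4 groups, from 12.04 to 16.1% of the ligand counts before treatment to between 4.58 and 10.7% after the 4 inhibitors. Art3, whose exons overlap those of Cxcl10, was called higher in these groups, as given below. Whether Art3 reads were counted for Cxcl10 was not tested, since the strand setting is not given. Art3 does not overlap Cxcl9.

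Cxcl9 to Cxcl10 was called after JAK1i, falling from a mean log2 ratio of 2.05 (1.90 to 2.23) to 1.28 (1.07 to 1.51). After JAK3i it was 2.35 (2.15 to 2.58, exact permutation adjusted p = 0.0816), after ruxolitinib 1.87 and after tofacitinib 1.99, none of them called. All 3 ligands fell relative to Cxcr3 after the 4 inhibitors. Cxcl9 to Cxcr3 went from a mean log2 ratio of 5.73 (5.44 to 6.52) to 2.89, 2.26, 2.14 and 2.60 in JAK1i, JAK3i, ruxolitinib and tofacitinib skin. The JAK1i libraries ranged from 1.68 to 3.77, replicate 3 being lowest, and without single libraries the difference from pretreatment ran from -3.29 to -2.24. For Cxcl10 to Cxcr3 the differences ran from -2.07 to -3.78, and for Cxcl11 to Cxcr3 from -3.31 to -4.67. After vehicle and JAK2i no ratio was called, and their differences from pretreatment lay between -0.15 and 0.10.

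Cxcr3 was also set against Cd3e, a subunit of the T cell receptor complex, and Cd8a, the coreceptor of cytotoxic T cells. Cxcr3 to Cd3e had a mean log2 ratio of -1.21 before treatment (-1.54 to -0.92). After JAK1i it was lower, at -2.65 (-3.19 to -1.96), and after JAK3i higher, at 0.22 (-0.28 to 0.56), and both groups lay outside the pretreatment range. After ruxolitinib (-1.33) and tofacitinib (-0.96) it was not called. The direction depends on the T cell gene chosen. In JAK1i skin Cxcr3 had a log2 fold change against vehicle of -3.50. Cd3g (-2.19) and Cd3d (-2.89) fell less there, but Cd2 (-3.64) and Trac (-5.22) fell more. In JAK3i skin Cxcr3 was at -1.89. Cd2 (-2.88) and Trac (-3.43) fell more there, but Trbc1 (-1.77) and Cd247 (-1.25) fell less. Cd3e itself stood at 22.4 ± 5.04 CPM before treatment. In JAK1i skin Cd3e stood at 5.73 ± 3.54 CPM, in JAK3i skin at 2.18 ± 0.104, with ruxolitinib at 11.2 ± 1.29 and with tofacitinib at 5.78 ± 1.177. Cxcr3 to Cd8a rose after all 4, from a mean log2 ratio of -3.40 to 0.95, -0.33, -0.56 and -0.25, while Cd8a went from 102.1 ± 23.0 CPM to 0.539 ± 0.451 after JAK1i and to between 3.39 and 6.61 CPM on average after the other 3. The value for JAK1i rests on 18, 2 and 9 reads of Cd8a, and the 2 reads have a Poisson 95% interval of 0.24 to 7.22. The JAK1i libraries stood at -0.96, 2.43 and 1.37, and their difference from pretreatment, 4.34, ran from 3.598 to 5.295 without single libraries. In the 1 JAK1i and 1 JAK3i library outside the 6 exchanged ones, the log2 ratio of Cxcr3 to Cd3e was -3.19 and 0.56, and that of Cxcl10 to Cxcl11 was 1.38 and 1.19. Further ratios in these libraries were 2.89 and 3.503 for Cxcl9 to Cxcl11, 1.51 and 2.32 for Cxcl9 to Cxcl10, 3.77 and 2.09 for Cxcl9 to Cxcr3, and -0.96 and 0.22 for Cxcr3 to Cd8a. All of these lay on the same side of the pretreatment mean as their group's mean.

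The test of ratios has little room. With vehicle as the reference 3 libraries face 3, the smallest p is 0.1 and 0 tests were called, and leaving out any 1 pretreatment, JAK1i, JAK3i, ruxolitinib or tofacitinib library left 0 of the 48 tests called, with a smallest possible p of 0.0357 or more in the comparisons that lost a library. Without single libraries the log2 difference of Cxcl10 to Cxcl11 from pretreatment ran from 1.177 to 1.295 for JAK1i, from 0.64 to 1.11 for JAK3i, from 1.04 to 1.38 for ruxolitinib and from 0.67 to 0.81 for tofacitinib.

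**Figure D3:**
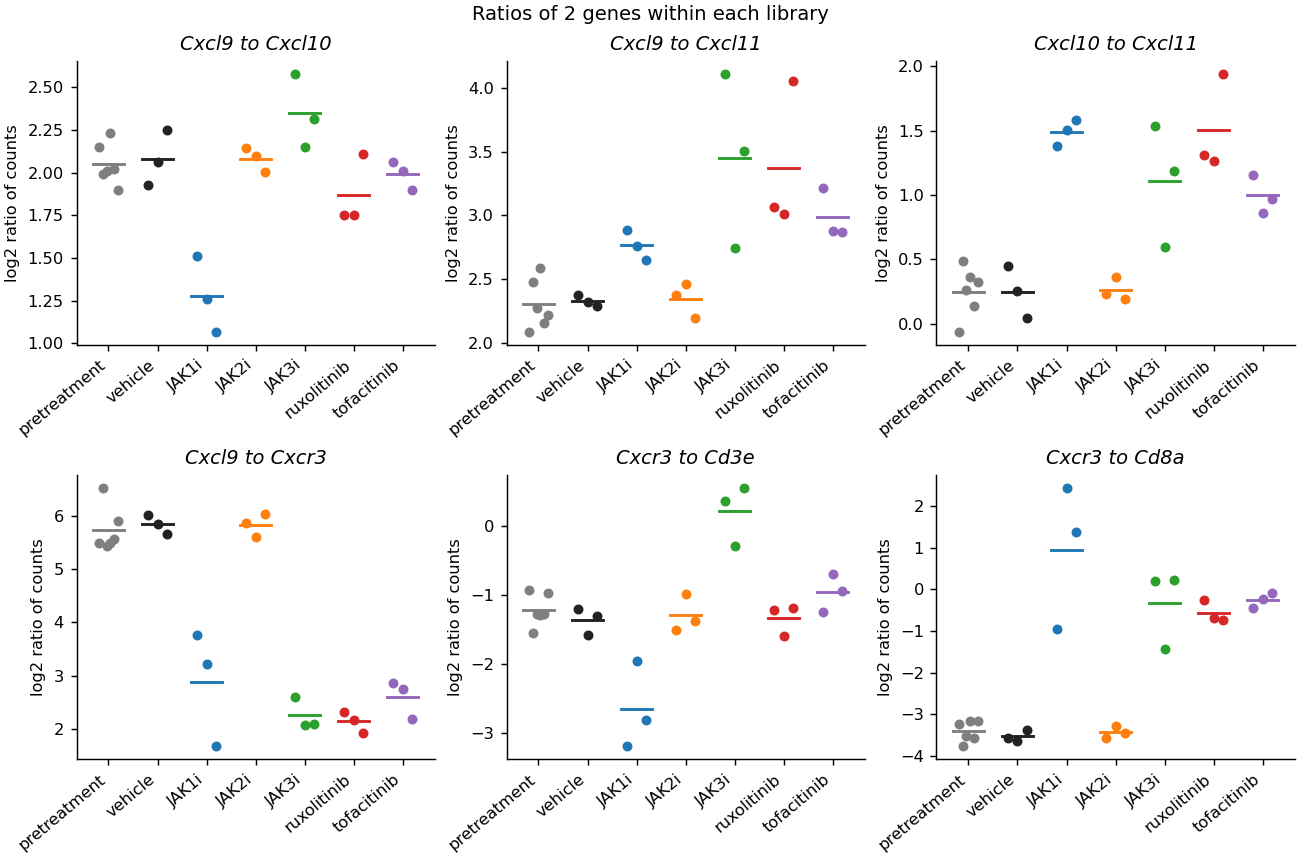
Log2 ratio of the counts of 2 genes within each library, for 6 of the 8 ratios tested. Points are libraries and bars group means, with 6 pretreatment libraries and 3 in each other group. Cxcl10 to Cxcl11 rises from a mean of 0.25 to between 1.00 and 1.503 after JAK1i, JAK3i, ruxolitinib and tofacitinib, and Cxcr3 to Cd3e is low after JAK1i (-2.65) and high after JAK3i (0.22).

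Upstream of the ligands, Ifng, the gene of IFN-γ, lay between 5.11 and 10.1 CPM before treatment and between 7.24 and 8.97 CPM in vehicle skin. It lay between 7.83 and 8.87 CPM after JAK2i, between 0 and 0.168 CPM after JAK1i, and between 0.197 and 0.559 CPM after the other 3 inhibitors. The 3 JAK1i libraries held 1, 0 and 3 reads of Ifng, too few for a stable fold. Ifng was called lower after all 4 of these inhibitors, with log2 fold changes against vehicle of -4.43 for JAK3i, -4.09 for ruxolitinib and -4.60 for tofacitinib. The values that follow are log2 fold changes against vehicle, in the order JAK1i, JAK3i, ruxolitinib and tofacitinib. Irf1, an induced activator of interferon targets, had log2 fold changes of -2.25, -1.65, -1.59 and -1.40, and Stat2 and Irf9, which act together at ISRE sites, were called lower in all 4 groups as well. Tnf, which acts with IFN-γ on the ligand genes through NF-κB, was called lower in all 4 (-3.17, -2.43, -1.36 and -1.41). Irf8 was called lower after JAK1i (-2.42), ruxolitinib (-1.28) and tofacitinib (-1.19), and was 0.09 after JAK3i. The receptor chain Ifngr1 rose after JAK3i (0.55), ruxolitinib (0.32) and tofacitinib (0.53), and Jak2 fell in the 4 groups by between 0.66 and 0.85 on the log2 scale. In JAK1i skin Ifngr1 was at 0.14, and at 0.39 without the 6 libraries.

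Of the 17 listed genes upstream of the ligands 16 could be tested. Called lower were 14 after JAK1i, 9 after JAK3i, 12 after ruxolitinib and 13 after tofacitinib, and called higher 0, 2, 1 and 1. Of all genes, 35.4%, 33.1%, 27.2% and 28.2% were called lower in the same order, and 28.8%, 31.7%, 23.6% and 24.8% higher. These shares also stand beside the counts of the lists and cell markers below. The counts were not tested against them. The median log2 fold change of the upstream list was -0.92, -0.58, -0.67 and -0.72, beside -0.06, 0.02, -0.01 and -0.01 for all genes. After JAK2i none of the 16 was called. Socs1, an inhibitor of JAK kinases induced by IFN-γ, was called lower in the 4 groups (-2.66, -2.46, -1.38 and -1.95). Of 20 other IFN-γ-induced genes, 20, 20, 20 and 19 were called lower after JAK1i, JAK3i, ruxolitinib and tofacitinib, with median log2 fold changes of -2.85, -2.63, -2.33 and -1.75. Without the 6 libraries the median in JAK1i skin was -1.93, and Irgm2 of this list went from -1.84 to -0.50. The falls of the 3 ligands, at -4.55 to -6.97, were larger than the list's medians in each group. Of 18 type I interferon-induced genes, 18, 16, 18 and 18 were called lower, with median log2 fold changes of -3.48, -2.14, -2.34 and -2.65. Irf1 and Socs1 stand in the IFN-γ list as well as in those above.

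Genes whose products bind, hold or trim chemokines moved in both directions. Ackr1, an endothelial receptor that binds many inflammatory chemokines without signalling, was called higher after JAK1i (0.68), JAK3i (1.70), ruxolitinib (1.69) and tofacitinib (1.68). Ackr3, which takes up CXCL11 and CXCL12, was called higher after JAK3i (0.41), ruxolitinib (0.64) and tofacitinib (0.66) and was 0.10 after JAK1i. Ackr2 and Ackr4, whose known ligands are mainly CC chemokines, were called higher in all 4 groups, by between 1.38 and 2.38 on the log2 scale. Dpp4, a peptidase that inactivates the 3 ligands as CXCR3 agonists, was called higher after JAK3i (0.93) and tofacitinib (1.04). In JAK1i skin the value of Dpp4 was -0.25 and not called, but without JAK1i replicate 3 it was -1.08 and called lower (edgeR adjusted p = 1.75e-04), and without the 6 libraries -1.44 (9.20e-06). Ackr1 was no longer called in JAK1i skin without JAK1i replicate 3 (0.29, adjusted p = 0.145) or without the 6 (0.43, adjusted p = 0.110). Sdc1, a syndecan whose sugar chains hold chemokines, was called lower in all 4, by 1.98, 2.98, 1.65 and 1.67 on the log2 scale. The 5 endothelial markers were called higher in all 4 groups too, with medians of 1.23, 1.96, 1.65 and 1.70, and their part in the rise of Ackr1 was not tested.

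On the receptor's side, Tbx21 (T-bet), the factor that drives Cxcr3 in T helper 1 and cytotoxic cells, was called lower in the 4 groups, with log2 fold changes of -3.65, -2.52, -2.44 and -2.59. Eomes, its relative in cytotoxic cells, was called lower after JAK1i (-4.21), ruxolitinib (-1.12) and tofacitinib (-2.22) and was -0.17 after JAK3i. Of the 8 listed transcription factors of CXCR3-bearing lymphocytes, 7, 6, 5 and 7 were called lower, and Klf2, a factor of quiescent cells that leave tissue, was called higher after JAK3i (0.78), ruxolitinib (0.86) and tofacitinib (0.95). In JAK1i skin Klf2 was at 0.39, and at 0.63 without the 6 libraries. Itgal, an integrin chain that T cells use to arrest once chemokines have activated them, was called lower in all 4 (-4.10, -3.23, -2.28 and -2.73), and Rgs1, which damps chemokine receptor signals, likewise (-4.203, -0.76, -2.13 and -1.96). Without the 6 exchanged libraries the value of Rgs1 in JAK3i skin was -2.08.

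Other chemokine receptors did not all follow Cxcr3. Cxcr6, a receptor of tissue-resident T cells, was called lower in the 4 groups (-4.43, -3.92, -2.15 and -3.15). Cxcr4, the receptor of CXCL12, was called lower after JAK1i (-1.68), ruxolitinib (-0.70) and tofacitinib (-1.02) and higher after JAK3i (1.56). Cxcl13, which attracts B cells, was called lower after JAK1i (-2.03) and ruxolitinib (-1.90) and higher after JAK3i (1.62), where its libraries ranged from 14.98 to 108.9 CPM. Without the 6 libraries Cxcl13 was at 2.64 in JAK3i skin and -4.10 in JAK1i skin, and without JAK1i replicate 3 at -3.58 in the latter. Cxcl1, a neutrophil attractant outside the CXCR3 system, was called lower in all 4 (-2.07, -1.09, -1.81 and -1.55), but not in JAK1i (edgeR adjusted p = 0.0846) or JAK3i skin (0.228) without the 6 libraries. Of 13 tested genes among the other CXC chemokines and receptors, 11, 7, 9 and 9 were called lower and 0, 3, 1 and 1 higher. The shares of all genes were 35.4%, 33.1%, 27.2% and 28.2% lower and 28.8%, 31.7%, 23.6% and 24.8% higher. The rise of Cxcr4 and Cxcl13 after JAK3i came with macrophage markers, of which 6 of 9 were called higher in that group only among the 4, with a summed level of 3081 to 3741 CPM against 1034 to 1243 CPM in vehicle skin, and their part in it was not tested.

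**Figure D4:**
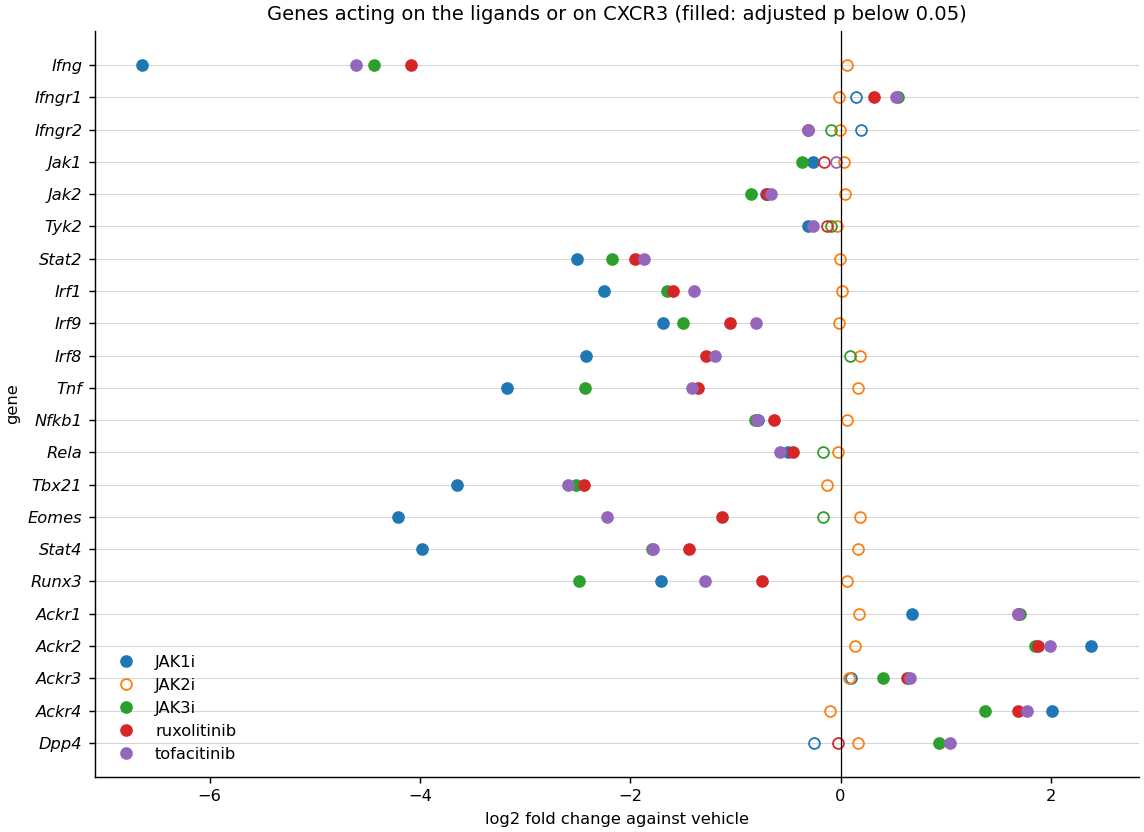
Log2 fold change against vehicle of genes that act upstream of the ligands, in CXCR3-bearing lymphocytes or on chemokines, after each inhibitor. Filled points have an edgeR adjusted p below 0.05 and open points do not. JAK2i points are open throughout, Irf1 lies between -1.40 and -2.25 after the other 4 inhibitors, and Ackr1, Ackr2 and Ackr4 lie above 0 after them.

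The neighbours of the ligand genes on chromosome 5 changed less, and in both directions. Art3, whose gene body spans Cxcl10 and Cxcl11 on the opposite strand, was called higher after JAK1i (1.31), JAK3i (1.37), ruxolitinib (0.72) and tofacitinib (1.01), while both genes it overlaps fell. Of the 10 neighbours tested, 4, 5, 3 and 2 were called lower in the same order of groups and 3, 1, 2 and 2 higher. Of all genes, 28.8%, 31.7%, 23.6% and 24.8% were called higher, and 35.4%, 33.1%, 27.2% and 28.2% lower, as above. The counts of neighbours thus lie near or below the shares of all genes, apart from 5 called lower after JAK3i. Without the 6 libraries 3 of 11 neighbours tested were called lower there. Sdad1 was no longer called in JAK1i skin without the 6 (-0.23, adjusted p = 0.134) or without JAK1i replicate 3 (-0.24, adjusted p = 0.0528). The most lowered was Naaa after JAK1i (-1.83), and Sdad1 and Scarb2 changed by between -0.37 and -0.60 in the 4 groups. Nup54, next to Cxcl11, was not called in any comparison with vehicle, its values lying between -0.18 and 0.11.

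Of 109 listed pathway genes that could be tested each time, 10 lost and 7 gained a call in JAK1i skin against vehicle without the 6 libraries, and 5 lost and 2 gained one in JAK3i skin. Without JAK1i replicate 3, 3 lost and 4 gained a call in JAK1i skin.

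**Figure D5:**
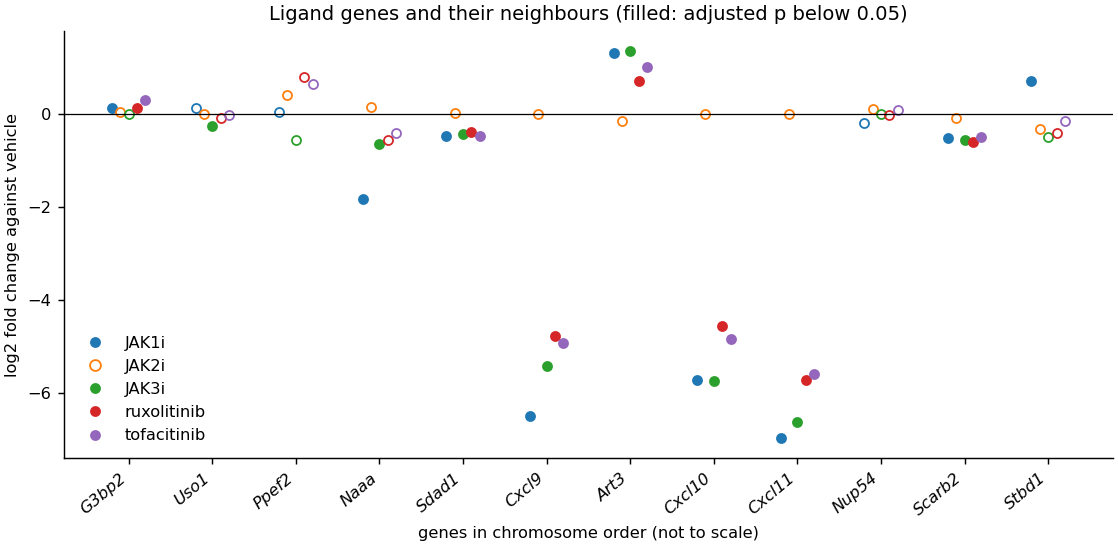
Log2 fold change against vehicle of the 3 ligand genes and 9 neighbours in their order on chromosome 5, after each inhibitor (spacing not to scale). Filled points have an edgeR adjusted p below 0.05. The ligand genes lie between -4.55 and -6.97 after JAK1i, JAK3i, ruxolitinib and tofacitinib, whereas their neighbours lie between -1.83 (Naaa) and 1.37 (Art3).

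Among 14455 expressed genes, those whose pattern over the 24 libraries was nearest to each member were named by the root mean square (RMS) difference of centred log2 CPM. Nearest to Cxcl9 were Cxcl10 (RMS difference 0.32), Pdcd1lg2 (0.50), which encodes the checkpoint ligand PD-L2, and Cxcl11 (0.51). Nearest to Cxcl10 were Cxcl9 (0.32), Apol9b (0.39) and Apol9a (0.46), a pair of near-identical genes between which reads may be split. Nearest to Cxcl11 were Cxcl9 (0.51), Cxcl10 (0.55) and Gzmb (0.61), the gene of granzyme B in cytotoxic lymphocytes. Nearest to Cxcr3 were Itgb7 (0.29), an integrin chain of lymphocytes, Il27ra (0.30), the receptor of interleukin 27, and Tbc1d10c (0.32), a regulator of lymphocyte signalling. Cxcr3 differed from its ligands by 1.67 to 2.13 on this measure, and Cxcr3 ranked 443 from Cxcl9, 495 from Cxcl10 and 531 from Cxcl11. Seen from Cxcr3, Cxcl9 ranked 13097, Cxcl10 12825 and Cxcl11 13926 among the 14455 genes. The RMS difference grows with the size of a change and does not compare shape alone. Cxcr3 fell less than its ligands but split the groups as they did. The ranks therefore do not show that Cxcr3 moved in other groups than its ligands. All of these are descriptions over libraries that share their groups.

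Markers of other cells moved with the same groups. Of 13 T cell markers, 13 were called lower after JAK1i, 12 after JAK3i, 10 after ruxolitinib and 11 after tofacitinib, and their summed level fell from 326.4 to 405.2 CPM in vehicle skin to 30.2 to 74.7, 134.8 to 143.0, 114.6 to 142.3 and 84.4 to 95.4 CPM. Cd4, the coreceptor of helper T cells that mouse macrophages and dendritic cells can also carry, was called higher after JAK3i, at 101.9 ± 10.8 CPM (SD, n = 3) against 7.04 ± 1.00 CPM in vehicle skin (log2 fold change 3.85, edgeR adjusted p = 6.92e-13). Without Cd4 the summed level of T cell markers was 318.6 to 397.8 CPM in vehicle skin and 31.5 to 44.6 CPM in JAK3i skin. Of 12 markers of cytotoxic and tissue-resident T cells, 12, 11, 11 and 12 were called lower, and Gzmk among them, like the NK cell marker Klre1, had no reads in any JAK1i library. Macrophage markers were called lower in 8 of 9 after JAK1i, 1 after ruxolitinib and 2 after tofacitinib. Macrophage markers called lower in JAK1i skin were 9 of 9 without JAK1i replicate 3 or without the 6 libraries, and those called higher in JAK3i skin were 9 without the 6. Of 6 fibroblast markers, 4 were called lower in JAK1i skin, and 6 without JAK1i replicate 3. Of 6 keratinocyte markers, 3, 6, 3 and 4 were called lower in the order of groups above. Of all genes 35.4%, 33.1%, 27.2% and 28.2% were called lower there, and the counts of this short list were not tested against these shares. The summed level of keratinocyte markers was 24470 to 27840 CPM in vehicle skin, 11700 to 16760 CPM in JAK1i skin, 7724 to 10060 CPM in JAK3i skin, 12840 to 15940 CPM with ruxolitinib and 12490 to 16140 CPM with tofacitinib. Skeletal muscle markers were called higher in 10, 9, 9 and 9 of 10, where 28.8%, 31.7%, 23.6% and 24.8% of all genes were called higher, with a summed level of 5613 to 7743 CPM in vehicle skin and of 37400 to 95770 CPM in JAK1i skin. In JAK3i skin the sum was 23910 to 33370 CPM, with ruxolitinib 22040 to 23620 CPM and with tofacitinib 14450 to 36820 CPM. All 7 adipocyte markers were called higher and all 8 hair shaft keratins lower in the 4 groups, and none of these markers was called after JAK2i. The part of these shifts in the fall of the 4 members was not tested.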

How the data were processed

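Skin RNA from 24 libraries was sequenced as paired reads. The values deposited by the authors are raw read counts per Entrez gene. The tools listed by the submitters are Subread and DESeq2 1.18.1, with mm10 (GRCm38) as genome, and the annotation and strand setting are not given in the sources used here. A second deposited table of 7 signature genes holds values on its own scale and z score rows made by the authors, and was used only to check column names against the counts. A spreadsheet had turned 26 symbols into dates, which were restored by Entrez ID, and 855 rows without a symbol held at most 0.608% of a library's counts.

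Counts were fitted with edgeR 4.0.16 (R 4.3.3), with TMM scaling, filterByExpr (minimum count 10, minimum total 15) and 1 quasi-likelihood model of 7 groups. CPM is per 1000000 reads of the TMM-scaled library size. Adjusted p-values (Benjamini-Hochberg, 17770 genes) below 0.05 were called. Log2 CPM for pattern distances used a prior count of 2. Ratios were tested by exact permutation (scipy 1.17.1), adjusted over 48 tests. The scripts were tested on simulated data. Results were recomputed with DESeq2 1.42.0, with RLE scaling, unfiltered, with a CPM of at least 1 required in 3 libraries (stricter filter), in fits of the 2 groups compared or of the 18 posttreatment libraries (blocked by replicate number or not), without each library in turn, without the 6 libraries with exchanged columns and, for the gene lists, also without JAK1i replicate 3 (both chosen after seeing the data), and, for ratios, adding 1 or taking vehicle as reference. Named genes are the 4 members, Cd3e and Cd8a, the 3 nearest genes of each, genes of the pathway lists and up to 4 markers of a cell type list; Gzmk and Klre1, at 0, and Cd4 were named after their values were seen. The members and lists were chosen with earlier results of these data known.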

Additional observations from a re-analysis of the deposited data

Results flagged for a closer look

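Pretreatment Cxcl11 had 1 library far from the other 5. The highest library, pretreatment replicate 1 from the cohort later given vehicle, held 145.9 CPM, and its gap to the next library was 0.653 of the whole range of the group. Chance flags about 1 in 20 groups of values by this measure. Without that library the log2 difference of Cxcl11 between vehicle and pretreatment was 0.18, not called.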

How the results depend on the processing

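For the 4 inhibitors against vehicle or pretreatment, 448 of 448 alternative values for the 4 members kept direction and call, as did 56 of 56 for JAK1i against JAK2i. For JAK2i or vehicle against their references, 0 of 172 alternative values were called (smallest adjusted p 0.967). Near 0 their signs turned. Cxcl11 in JAK2i against vehicle was 0 by DESeq2 and by RLE scaling, 0.008 without a filter, 0.004 with the stricter filter and 0.007 in a fit of only the 2 groups. Cxcr3 in JAK2i against pretreatment was -0.001 with the stricter filter, and Cxcl11 there was -0.011 without the 6 libraries.

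Fitting only the 2 groups, JAK3i against ruxolitinib was no longer called for Cxcl9 (-0.636, adjusted p = 0.0557) and Cxcl11 (-0.896, adjusted p = 0.0755). Without the 6 libraries with exchanged columns it was -0.565 for Cxcl9, -0.821 for Cxcl11 and -0.508 for Cxcr3, none called, and JAK3i against tofacitinib was -0.756 for Cxcl10 and -0.954 for Cxcl11, no longer called, and 0.094 for Cxcr3. Genes called between tofacitinib and ruxolitinib numbered 66, against 292 by DESeq2, 42 without a filter, and 14 without and 19 with the replicate number as a block in the 18 posttreatment libraries. DESeq2 called 1 gene in JAK2i against pretreatment.

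Taking vehicle as the reference for ratios left 0 tests called. It turned the sign in JAK2i of Cxcl9 to Cxcr3 (-0.007), Cxcl10 to Cxcr3 (-0.008), Cxcl11 to Cxcr3 (-0.023), Cxcr3 to Cd3e (0.074) and Cxcr3 to Cd8a (0.1), and in ruxolitinib of Cxcr3 to Cd3e (0.032). Leaving out single libraries gave 0 to 27 called ratios. It gave log2 differences from pretreatment of -0.015 to 0.182 (Cxcl11) and -0.184 to 0.102 (Cxcr3) in vehicle, and of -0.004 to 0.182 and -0.157 to 0.127 in JAK2i. For JAK2i against vehicle it gave -0.02 to 0.071 (Cxcl9), -0.016 to 0.076 (Cxcl10), -0.065 to 0.076 (Cxcl11) and -0.134 to 0.187 (Cxcr3). For JAK3i against ruxolitinib it gave -0.881 to -0.415 (Cxcl9), -1.207 to -0.628 (Cxcl11) and -0.94 to -0.62 (Cxcr3), and against tofacitinib -0.746 to -0.283 (Cxcl9). For tofacitinib against ruxolitinib it gave -0.263 to 0.013 (Cxcl9), -0.179 to 0.4 (Cxcl11) and 2 to 248 called genes. The cause of these changes was not tested.

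Same-numbered libraries of different posttreatment groups correlated weakly (45 pairs, r from -0.173 to 0.29, 3 above 0.1). Differently numbered pairs were not compared, so these values cannot decide whether replicate numbers pair the libraries. Pairing of pretreatment with posttreatment libraries was not tested. The block by replicate number changed no member's call. Low counts limit Cxcl11, Cxcr3 and Cd8a after JAK1i.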
